A study of Homo sapiens with 3 samples.

Results

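The genes of iron uptake, storage and hepcidin were read on 3 one-colour oligonucleotide arrays. The cells were Huh7, a human liver cancer line that is established and widely used. The 10 genes were TF, TFRC, TFR2, HFE, HAMP, SLC40A1, SLC11A2, FTH1, FTL and IREB2. The genes were chosen for their place in liver iron handling, with earlier results of these data known. They were found through the RefSeq accession given for each gene probe, which led to 15 probes on 33 spots, of 34127 probes and 19740 named genes on the array. Of these genes, 6 had 1 probe and 4 had more. The groups were untreated control cells, cells exposed to 50 µM chlorogenic acid (CA) for 24 h and cells exposed to 100 µM CA for 24 h, with 1 array in each. By the study's methods CA was dissolved in DMSO and the solvent alone was the reference for untreated cells, while the labels give the control no treatment, so whether the control cells received DMSO is not settled. All 3 groups were the same line, kept in DMEM with fetal calf serum, penicillin and streptomycin, and it is a single tumor line grown without other liver cells. CA is a plant polyphenol, an ester of caffeic acid and quinic acid, whose catechol group can bind ferric iron. With 1 array per group no difference has a replicate check, no p-value is given, and every ratio below compares one array with another.

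Iron circulates bound to transferrin, which hepatocytes secrete, and cells take it up through transferrin receptors. Surplus iron is stored in ferritin, a shell of heavy and light chains, and leaves the cell through ferroportin, which the liver hormone hepcidin removes from the cell surface. Iron regulatory proteins bind hairpins called iron responsive elements when iron is scarce, which stabilises the receptor mRNA and blocks translation of the ferritin mRNAs, so that much of this control changes protein without changing the amount of ferritin mRNA. An array sees the mRNA only.

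The control elements of this system were shown for 3 of the genes, since they are the sequences through which hepcidin, the receptor and ferritin are known to be regulated. The stretches were copied from RefSeq, build GRCh38.p14, and are written on the strand of the gene. For HAMP and TFRC they cover the bases from -130 to -1 before the annotated start, at chr19:35282398-35282527 on the plus strand and chr3:196082091-196082220 on the minus strand. Capitals in the HAMP line mark GGCGCC, the core of a BMP response element, and a match to TTCNNNGAA, the STAT site pattern. Capitals in the TFRC line mark ACGTG, the core of a hypoxia response element, TGACGCA, an element related to cyclic AMP and AP-1 sites, and, nearest to the start, TATAAA, the box that positions the polymerase. The FTL line lies within the transcript at chr19:48965332-48965358 on the plus strand, at offsets 23 to 49 from the annotated start. Capitals in it mark the bulge and loop of its iron responsive element.
HAMP promoter: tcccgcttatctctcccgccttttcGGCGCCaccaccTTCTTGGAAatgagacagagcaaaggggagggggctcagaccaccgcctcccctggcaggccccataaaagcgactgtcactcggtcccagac
TFRC promoter: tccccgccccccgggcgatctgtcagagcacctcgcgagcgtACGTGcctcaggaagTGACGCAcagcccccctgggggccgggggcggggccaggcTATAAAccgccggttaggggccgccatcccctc
FTL iron responsive element: tgtctcttgCTTCAACAGTGtttggac

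These letters are common in promoters. Of 35116 promoter windows in the table, searched on both strands over the 250 bases before the start, 16.4% held GGCGCC, 6.57% TTCNNNGAA, 18.5% ACGTG, 2.09% TGACGCA and 10.7% TATAAA. The bulge and loop pattern of the iron responsive element, searched on the transcript strand over the first 50 bases, was in 1.71%. The ACGTG core was also found from -10 to -6 of HFE and, on the other strand, from -11 to -7 of FTL, and GGCGCC was found in windows of TF, TFRC and IREB2. The table held windows for 8 of the 10 genes, without FTH1 and TFR2. A match is a string of letters and says nothing of whether a factor was bound in these cells.

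The 75th percentile of gene spots was 1059, 1207 and 1249 intensity units on the untreated, CA 50 µM and CA 100 µM arrays, and 70.4% to 71.1% of gene spots were well above background. The CA 100 µM array had 2460 gene spots (5.71%) in disturbed areas, patches in which normally dim spots read bright, against 60 and 38 on the others, and 1 spot of the iron genes, one of 10 for SLC40A1, lay there. Hepatocyte and hepatoma markers were well above background for 11 of 12 genes on all 3 arrays, with ALB at 109428 and AFP at 95490 units untreated, while the HNF4A probe was not (9.37, 21.8 and 15.5 units). Summed over that list the intensity was 405404, 413018 and 397701 units. Erythroid markers, which would mark other iron-handling cells, summed to 2303, 3057 and 2609 units, macrophage markers to 1113, 1391 and 1200, fibroblast and stellate markers to 630, 724 and 826 and endothelial markers to 834, 1136 and 1080. Of the genes of these lists with a probe, 6 of 9, 4 of 9, 5 of 7 and 4 of 5 were well above background on all 3 arrays, and their part in the values below was not tested. Fewer cells of a type and less RNA per cell cannot be told apart on such arrays.

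Of the iron gene probes, 14 of 15 were well above background on all 3 arrays, with TF counted by spots that carried an outlier flag. The exception was the second HFE probe. Over the whole array, 22114 of 34127 probes were well above background on all 3 arrays, counted without flagged spots. Probes that passed could still be dim, such as those of TFR2 and HFE. Each value is log2 of the processed intensity after subtraction of the 75th percentile of its array, and a log2 ratio is the difference of such values. Ratios could be formed for 13 probes of 9 genes, since the only TF spot carried an outlier flag on the untreated and CA 50 µM arrays. None of the 13 was at least 2-fold higher or lower at CA 50 µM, where 1.07% of all 22471 probes compared were. None was at CA 100 µM, against 0.894% of 22267 probes, and none between the doses, against 0.855% of 22453. None reached 1.5-fold either, a size seen in 7.21%, 4.31% and 3.62% of all probes in these comparisons. At shares this low, 0 of 13 is close to what the whole array would give.

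The log2 ratios of the 13 probes ran from -0.42 to 0.20 at CA 50 µM, with a median of -0.05 against -0.01 for all probes. At CA 100 µM they ran from -0.49 to 0.09, with a median of -0.03 against -0.02. The lowest values at both doses were those of FTH1, the ferritin heavy chain, whose 3 probes were the lowest at CA 100 µM, while HAMP came between them at CA 50 µM. The probes above 0 were 5 at CA 50 µM and 4 at CA 100 µM. Both sets of ratios rest on the same untreated array, so that an error on that array enters both.

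**Figure D1:**
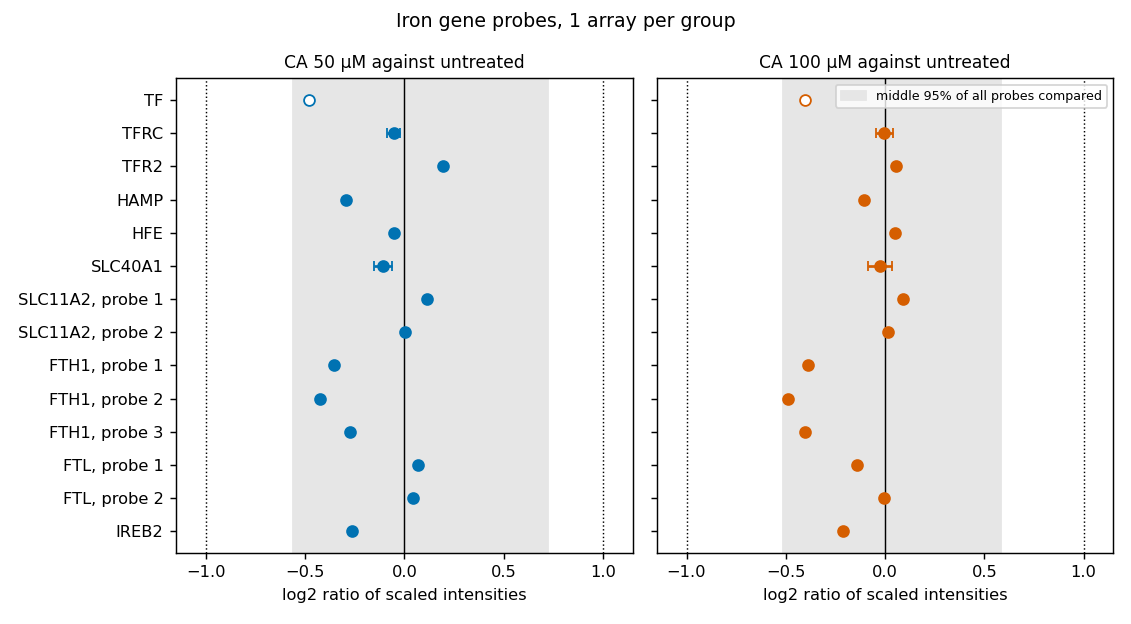
Log2 ratio of scaled intensities (x axis) for each iron gene probe (y axis), CA 50 µM against untreated on the left and CA 100 µM against untreated on the right, 1 array per group. Bars are the SD over 10 spots and exist only for TFRC and SLC40A1, the open TF point uses spots with an outlier flag, the grey band is the middle 95% of all probes compared and dotted lines mark 2-fold; every point lies inside the band, with TF and 2 of the FTH1 probes farthest to the left at CA 50 µM and TF and all 3 FTH1 probes at CA 100 µM.

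The files hold errors of a technical kind only. For probes printed as 10 spots the SD of the log2 ratio between spots had a median of 0.06 at both doses, over 814 probes at CA 50 µM and 810 at CA 100 µM, and went from 0.21 in the dimmest of 5 classes of signal to 0.05 in the brightest at CA 50 µM. The scanning software gives most iron gene spots an error of 10%, which is 0.20 on a log2 ratio, and the dim TFR2 and HFE spots more, 0.22 and 0.25 at CA 50 µM. Neither covers the spread between cultures, extractions or hybridisations. Over all probes the SD of the log2 ratio was 0.33 at CA 50 µM and 0.28 at CA 100 µM.

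TF encodes transferrin, the plasma carrier of iron and a product of differentiated hepatocytes. Its probe, A_23_P212508, is a single spot that read 14674 units untreated, 11976 at CA 50 µM and 13078 at CA 100 µM, each well above background. The untreated array was the highest before and after scaling. With the flagged spots kept, the log2 ratios were -0.48 at CA 50 µM and -0.40 at CA 100 µM, and 0.08 between the doses. In the log2 table that the authors deposited the same probe gave -0.39 and -0.35. The spot was flagged as uneven on the untreated and CA 50 µM arrays, so that these ratios were left out of every count.

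TFRC encodes transferrin receptor 1, the main gate for transferrin iron, whose mRNA is stabilised through iron responsive elements when iron is scarce. Its probe, A_23_P212617, was printed 10 times, which makes it one of the best measured of the set. The 10 spots averaged 21435 units untreated, 23542 at CA 50 µM and 25229 at CA 100 µM. After scaling, the spots lay between 4.26 and 4.41 on the log2 scale untreated, between 4.22 and 4.36 at CA 50 µM and between 4.26 and 4.40 at CA 100 µM, so that the arrays overlapped. The log2 ratio was -0.05 ± 0.03 at CA 50 µM (SD over 10 spots of 1 array pair) and -0.003 ± 0.04 at CA 100 µM, with 9 and 7 of 10 spots below 0. Against the median of the 500 probes nearest in signal the ratio was 0.09 above at both doses, so its sign depended on the scaling. Under every scaling tried the TFRC ratio stayed between -0.10 and 0.11 at both doses.

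**Figure D2:**
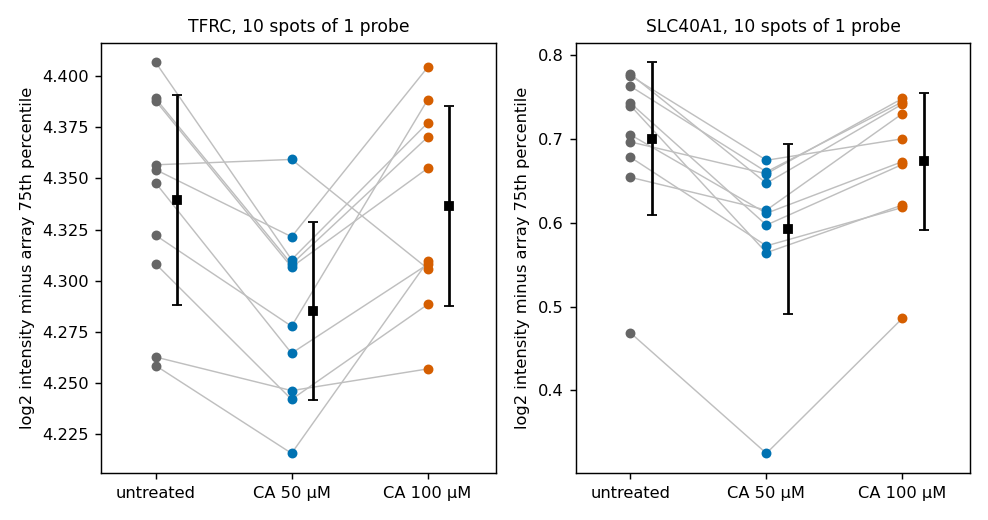
Scaled log2 intensity (y axis) of the 10 spots of the TFRC probe (left) and of the SLC40A1 probe (right) on the untreated, CA 50 µM and CA 100 µM arrays, with grey lines joining the same spot and black squares with bars giving the mean and SD over the 10 spots. All 10 SLC40A1 lines go down from untreated to CA 50 µM, while TFRC spots of the 3 arrays overlap between 4.26 and 4.36.

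TFR2 and HFE are the hepatocyte's sensors of transferrin iron and act upstream of hepcidin. Both gave dim spots. The TFR2 probe, A_23_P122896, read 58.1, 75.9 and 71.1 units on the untreated, CA 50 µM and CA 100 µM arrays, with log2 ratios of 0.20 and 0.05. Of the 500 probes nearest in signal, 65.2% lay below it at CA 50 µM and 60.6% at CA 100 µM, so TFR2 stood in the body of probes as dim as itself.

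The first HFE probe, A_24_P111996, read 47.1, 51.8 and 57.6 units, with log2 ratios of -0.05 and 0.05. The second, A_24_P289648, belongs to another HFE transcript and read 2.62, 7.97 and 5.68 units, on no array well above background, so it has no ratio. For both sensors a shift of the size seen in the bright genes could not be resolved, since the middle 95% of the 500 probes nearest in signal to TFR2 began at -0.72 at CA 50 µM.

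HAMP encodes hepcidin, the hormone that closes iron export, and is driven by BMP and STAT signals through the elements shown above. Its probe, A_33_P3336720, a single spot, read 1454 units untreated, 1354 at CA 50 µM and 1595 at CA 100 µM. The CA 50 µM array was the lowest, also after scaling. The log2 ratio was -0.29 at CA 50 µM (0.817-fold), -0.10 at CA 100 µM (0.930-fold) and 0.19 between the doses. Of the 500 probes nearest in signal, 12.0% lay below HAMP at CA 50 µM and 27.4% at CA 100 µM. The HAMP ratio was below 0 at both doses under all 13 alternatives, some of which cannot move a single unflagged spot, between -0.38 and -0.26 at CA 50 µM and between -0.13 and -0.09 at CA 100 µM.

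SLC40A1 encodes ferroportin, the cell's iron exporter and the target of hepcidin. The 10 spots of its probe, A_23_P102391, averaged 1720, 1821 and 1992 units on the untreated, CA 50 µM and CA 100 µM arrays. One spot of the 10 was dimmer than the rest on each array. After scaling, the log2 ratio was -0.11 ± 0.04 at CA 50 µM (SD over 10 spots of 1 array pair), with 10 of 10 spots below 0. At CA 100 µM it was -0.03 ± 0.06, with 7 of 10 spots below 0. The shift at CA 50 µM was larger than the spread between spots, yet 37.8% of the 500 probes nearest in signal lay lower still.

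SLC11A2 encodes the divalent metal transporter that moves ferrous iron out of endosomes. Its first probe, A_23_P139820, read 231, 284 and 290 units, with log2 ratios of 0.11 and 0.09 at CA 50 µM and CA 100 µM. Its second, A_24_P381494, read 974, 1111 and 1162 units, with 0.0008 and 0.02. The raw readings of both followed the 75th percentile of the arrays, and after scaling the ratios of both probes were below the software's error of 0.20.

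FTH1 encodes the ferritin heavy chain, which oxidises iron for storage, and FTL encodes the light chain, which helps the mineral core to form. Both were among the brightest transcripts of the array. The 3 FTH1 probes were lower on both CA arrays than on the untreated array, and the 2 FTL probes were close to it. The first FTH1 probe, A_24_P58337, read 68995, 61539 and 62167 units on the untreated, CA 50 µM and CA 100 µM arrays. The second, A_32_P342064, read 69947, 59424 and 58752 units. The third, A_33_P3253249, read 73192, 69098 and 65213 units. All 3 were highest on the untreated array even before scaling, although that array had the lowest 75th percentile. Their log2 ratios were -0.35, -0.42 and -0.27 at CA 50 µM and -0.39, -0.49 and -0.40 at CA 100 µM, or 0.745- to 0.828-fold and 0.712- to 0.764-fold.

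The FTL probes did otherwise. A_23_P50504 read 59497, 71003 and 63576 units, with log2 ratios of 0.07 and -0.14. A_32_P155247 read 32077, 37730 and 37701 units, with log2 ratios of 0.04 and -0.005. The FTL transcript carries the iron responsive element printed above, which acts on translation and would not be seen here.

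Very bright probes ran low on both CA arrays, and ferritin has to be read against them. The 500 probes nearest in signal to FTH1 had a median log2 ratio of -0.19 at CA 50 µM and -0.18 at CA 100 µM. Against the medians of the 500 the 3 FTH1 probes were at -0.16, -0.23 and -0.08 at CA 50 µM and at -0.21, -0.31 and -0.22 at CA 100 µM. Of the nearest probes, 10.4%, 3.6% and 28.2% lay below them at CA 50 µM and 8.6%, 1.8% and 6.4% at CA 100 µM. The second probe at CA 100 µM was the 1 of 13 iron gene probes outside the middle 95% of its 500 neighbours, which began at -0.47. The FTL probes were above their neighbours' medians by 0.26 and 0.21 at CA 50 µM and by 0.04 and 0.12 at CA 100 µM.

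So near the top of the scale most of these neighbours are dimmer, with 76 to 113 of 500 brighter than the FTH1 probes, and the choice of neighbours matters. Against the 25 next dimmer and 25 next brighter probes, whose medians lay between -0.27 and -0.26 at CA 50 µM and between -0.29 and -0.26 at CA 100 µM, the FTH1 probes were at -0.10, -0.15 and -0.01 at CA 50 µM. At CA 100 µM they were at -0.12, -0.23 and -0.12. The FTH1 shift beyond that of equally bright probes was thus smaller by this measure, and for the third probe at CA 50 µM almost 0. By the same measure the FTL probes were above their neighbours by 0.34 and 0.23 at CA 50 µM and by 0.13 and 0.16 at CA 100 µM.

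**Figure D3:**
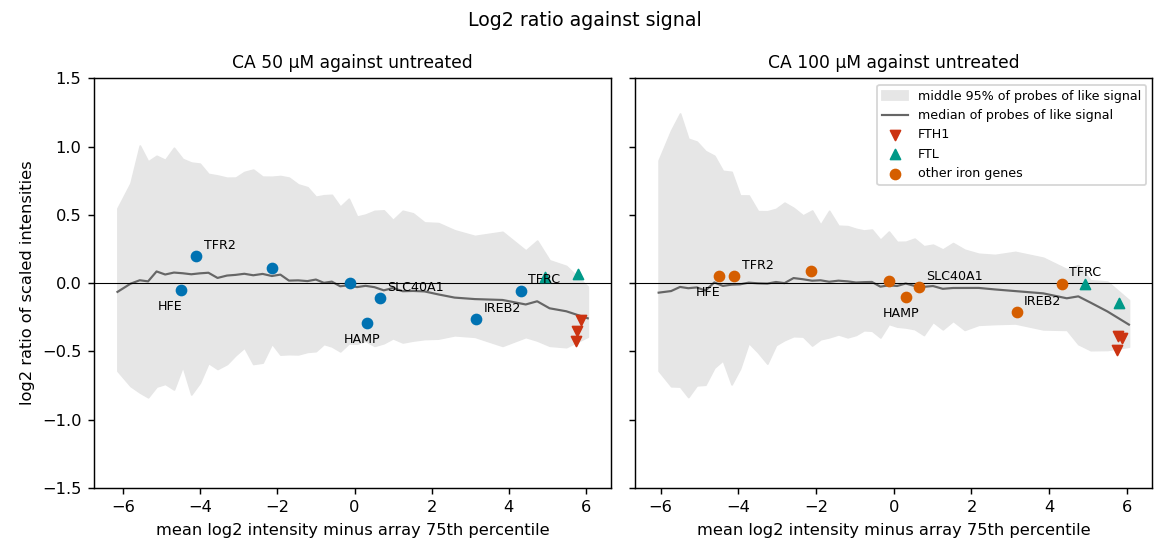
Log2 ratio (y axis) against mean scaled log2 intensity over the 3 arrays (x axis) for CA 50 µM (left) and CA 100 µM (right) against untreated, with the grey line and band giving the median and the middle 95% of probes of like signal and symbols giving the iron gene probes. The median line bends below 0 among the brightest probes, where the 3 FTH1 probes (red) lie at or below it and the 2 FTL probes (green) above it.

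The heavy and light chain can be compared within an array, where the scaling of the array cancels. The mean of the 3 FTH1 log2 ratios minus the mean of the 2 FTL ratios was -0.41 at CA 50 µM and -0.35 at CA 100 µM. That is a ratio of heavy to light chain signal of 0.755 and 0.782 times that of untreated cells. All 6 pairs of an FTH1 and an FTL probe, which share 5 spots, had this sign at each dose, from -0.49 to -0.32 and from -0.48 to -0.25. Between the doses the difference was 0.05, with 2 of 6 pairs below 0. Of the alternatives run for this difference, 4 can move it, namely quantile normalization, cyclic loess, normexp and the deposited log2 table. Under these 4 it lay between -0.50 and -0.34 at CA 50 µM and between -0.36 and -0.28 at CA 100 µM. The comparisons with probes of like signal can move it too, since a trend with signal does not cancel, and were not run for it. Quantile normalization and the deposited table each gave -0.34 at CA 50 µM and -0.28 at CA 100 µM, so they are not separate checks. Median centring and the filters on spots leave it as it is by construction. The single means moved more, with FTH1 from -0.41 to -0.10 and FTL from 0.01 to 0.24 at CA 50 µM. This shows that the signals changed unequally between arrays, not that FTL stayed the same.

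**Figure D4:**
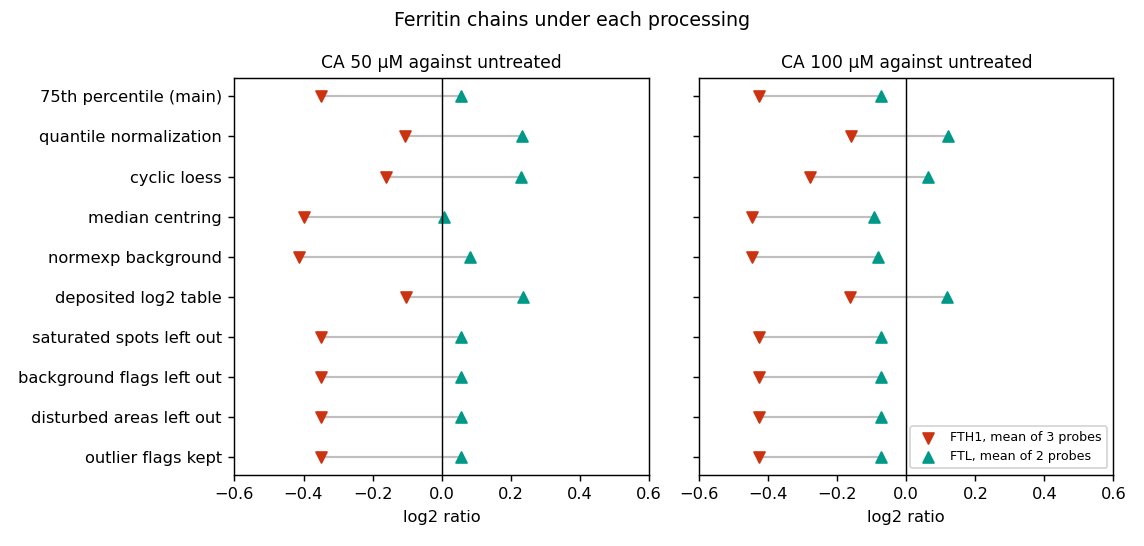
Mean log2 ratio (x axis) of the 3 FTH1 probes (red) and of the 2 FTL probes (green) under each of 10 ways of processing (y axis), CA 50 µM against untreated on the left and CA 100 µM against untreated on the right. The difference between the chains is the same by construction in 6 rows. FTH1 lies below 0 and to the left of FTL in every row, while FTL lies on either side of 0 at CA 100 µM.

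The ferritin readings carry a limit of the probes. The human genome holds many near-identical copies of the ferritin genes, and the gene table listed 27 heavy chain pseudogenes and 20 light chain ones, of which 1, FTLP10, had a probe here and was not well above background. Signal of FTH1 and of transcribed copies cannot be told apart. The probe of FTHL17, a heavy chain relative known from the testis, read 33539, 35720 and 30889 units, with log2 ratios of -0.10 and -0.36. The probe of FTMT, mitochondrial ferritin, was dim at 44.3, 36.5 and 38.0 units, with -0.47 and -0.46.

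IREB2 encodes iron regulatory protein 2, the RNA-binding protein that reads the iron responsive elements and is itself destroyed when iron is plentiful. Its probe, A_33_P3221528, a single spot, read 10566, 10033 and 10773 units on the untreated, CA 50 µM and CA 100 µM arrays. Raw readings were level, while the scale of both CA arrays was higher. The log2 ratios were -0.26 and -0.21, or 0.833- and 0.864-fold, and -0.15 against the neighbours in signal at each dose. Both were below 0 under all 13 alternatives, with the same restriction as for HAMP.

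Beyond these genes, 6 lists of related genes were read, holding 121 genes, of which ERFE and FDX2 had no probe. No probe of the lists was at least 2-fold higher or lower at either dose, of 153 measured at CA 50 µM and 152 at CA 100 µM, where the shares over all probes were 1.07% and 0.894%. From so few probes a count of 0 is close to the share of the whole array. The list medians at CA 50 µM and CA 100 µM were 0.02 and 0.03 for iron uptake, reduction and trafficking, 0.04 and -0.02 for hepcidin control and -0.08 and -0.04 for iron sensing and IRE transcripts. They were -0.10 and -0.03 for heme synthesis, export and breakdown and -0.05 and -0.02 for iron-sulfur cluster assembly. The list of genes that respond to HIF and to iron chelation had the lowest medians, -0.19 and -0.13, against -0.01 and -0.02 for all probes. Of its 23 probes, 17 and 20 were below 0, and with cyclic loess 15 and 19. Very bright probes ran low on both CA arrays, and this list was not set against probes of like signal. Over the ways of processing its median ran from -0.24 to -0.09 at CA 50 µM and from -0.15 to -0.11 at CA 100 µM.

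**Figure D5:**
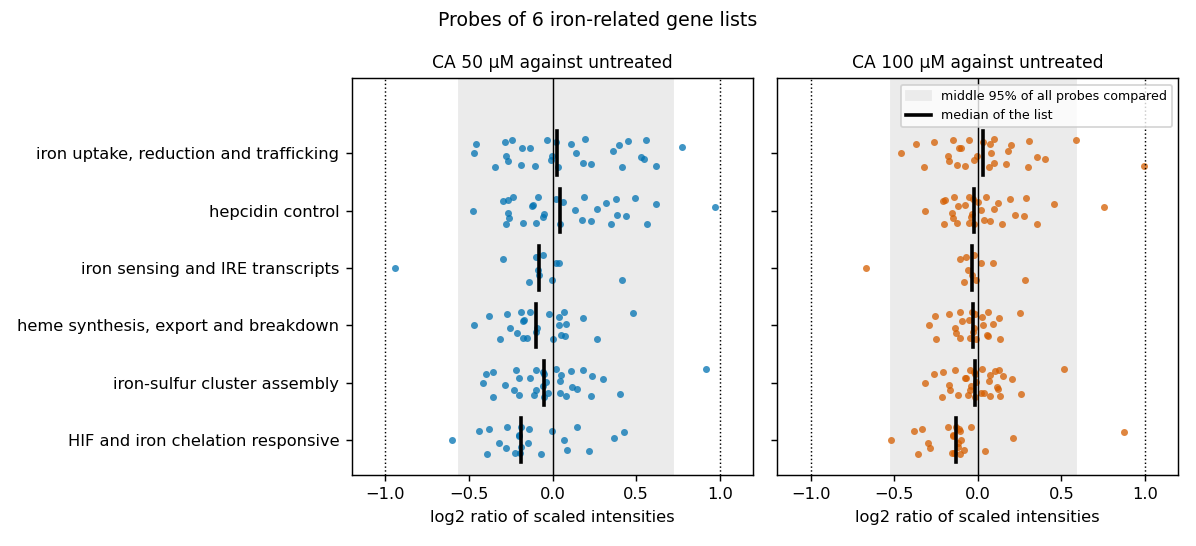
Log2 ratios of scaled intensities (x axis) of the measured probes of 6 iron-related gene lists (y axis), CA 50 µM against untreated on the left and CA 100 µM against untreated on the right, with 1 point per probe, black bars for list medians, a grey band for the middle 95% of all probes compared and dotted lines at 2-fold. No point lies beyond 2-fold, and the median bar of the HIF and iron chelation list is the farthest to the left at both doses.

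Among the genes of trafficking, STEAP3, the endosomal ferrireductase, had a log2 ratio of 0.18 at CA 50 µM and 0.09 at CA 100 µM at its bright probe. Its dim probe read 12.8, 24.5 and 19.0 units and was not well above background untreated. The scaled readings of that probe were 1.68- and 1.25-fold higher at CA 50 µM and CA 100 µM, which is not a lower bound on the change. SLC39A14, an importer of iron not bound to transferrin, had -0.003 and 0.07 at its bright probe (14812, 16850 and 18302 units). Its dim probe was at 0.41 and 0.59 from 16.6, 25.3 and 29.5 units, with its CA 100 µM spot in a disturbed area. NCOA4, the receptor that delivers ferritin to the lysosome, had -0.24 and -0.17 at its bright probe and 0.19 and 0.35 at its dim one. These probes of one gene did not go the same way. CP, the ferroxidase ceruloplasmin, had -0.19 and -0.32 at one probe and -0.28 and -0.37 at the other. HP, which binds free hemoglobin, had -0.28 and -0.10, and HPX, which binds free heme, 0.62 and 0.31 from 526, 923 and 769 units. By the brightest probe of each gene, the ends of the list were MCOLN1, a lysosomal channel that releases iron, at 0.78 and 0.99 from a dim spot (34.0, 66.5 and 80.0 units) that lay in a disturbed area of the CA 100 µM array, and FTMT.

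Of the regulators of hepcidin, HJV, the BMP co-receptor hemojuvelin, read 22.6, 32.2 and 24.2 units, with 0.32 and -0.14. TMPRSS6, the protease that cleaves it, had 0.17 and -0.05, and the BMP6 probe was well above background on no array. SMAD7 and ID1, which BMP signalling switches on together with HAMP, had 0.02 and -0.04, and -0.30 and -0.15. ID1 and HAMP were lowest on the CA 50 µM array, and SMAD7 was not. ID1 was very bright (58415, 54210 and 62264 units) and has to be read against probes of like signal. In the brightest groups of such probes the median log2 ratios were -0.21 and -0.26 at CA 50 µM and -0.21 and -0.30 at CA 100 µM. By the brightest probe of each gene, the ends of the list were FURIN, a protease that processes prohepcidin, at 0.97 and 0.46 (209, 468 and 339 units), and GDF15, a stress cytokine, at -0.48 and -0.32.

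In the list of iron sensing and IRE transcripts, ACO1, FBXL5 and EPAS1 gave ratios close to 0. ACO1, the cytosolic aconitase that doubles as an iron regulatory protein, had 0.04 and -0.03. FBXL5, the ubiquitin ligase subunit that removes IREB2 protein, had -0.08 and 0.02, and EPAS1, a hypoxia-inducible factor with an iron responsive element, -0.05 and -0.07. EPAS1 was very bright and lay above probes of like signal. In the groups nearest to it the medians were -0.18 and -0.21 at CA 50 µM and -0.14 and -0.21 at CA 100 µM. ALAS2, the erythroid heme enzyme, was at -0.95 and -0.67 on a dim spot (41.6, 24.6 and 30.9 units), and CDC14A, a phosphatase, was at 0.41 and 0.28 on another dim spot.

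In heme handling, ALAS1, the first enzyme of the liver's heme synthesis, had 0.08 and 0.13. HMOX1, the inducible heme oxygenase, had -0.21 and -0.11, CPOX, a late enzyme of heme synthesis, -0.31 and -0.29 and BLVRB, a biliverdin reductase, -0.47 and -0.17. The probes of UROS, which closes the porphyrin ring, were at 0.27 and 0.48 at CA 50 µM and at 0.13 and 0.25 at CA 100 µM. In iron-sulfur assembly the scaffold ISCU had -0.40 and -0.21, and CIAO1, which hands clusters to cytosolic proteins, -0.42 and -0.32. NUBP2, a cytosolic scaffold, was at 0.92 and 0.52 from a dim spot (39.3, 84.8 and 66.5 units). HMOX1, CPOX, BLVRB and ISCU were bright, so part of their ratios is shared with probes of like signal. In the groups nearest to them in signal the medians lay between -0.12 and -0.11 at CA 50 µM and between -0.08 and -0.05 at CA 100 µM.

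Of genes known to be raised by iron chelators and hypoxia, NDRG1 had -0.07 and -0.15 from 24290, 26435 and 25868 units. It was very bright, and the median log2 ratio of probes of like signal was -0.16 at CA 50 µM and -0.11 at CA 100 µM. NDRG1 thus lay above that median at CA 50 µM and below it at CA 100 µM. VEGFA, the vessel growth factor, had -0.28 and -0.13 at its bright probe (3194, 3004 and 3447 units) and 0.43 and -0.29 at its dim one (112, 172 and 108 units). ANKRD37 had -0.60 and -0.36, PFKFB4, a regulator of glycolysis, -0.23 and -0.52 and BHLHE40, a transcriptional repressor, -0.002 and 0.05. TFRC, whose promoter holds the ACGTG core, stood beside them at -0.05 and -0.003.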

How the data were processed

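The authors amplified total RNA of Huh7 cells with Cy3 label, hybridised it to Agilent whole human genome arrays, 1 per group, and read the images with Agilent Feature Extraction 11.0.1.1. Groups follow the treatment label of each sample. The deposited intensity of a spot is background-subtracted and not scaled between arrays. A log2 table from the authors, deposited with one value for each probe and a normalization not given in the sources used here, was used as an alternative.

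From the intensities, log2 minus the 75th percentile of each array was computed over gene spots without an outlier flag, and spots of a probe were averaged. A probe counted as well above background where at least 50% of its spots were, and ratios needed this on both arrays. Probes beyond 2-fold were counted, as a description only. The floor of the arrays was 12.2, 12.5 and 14.8 units. No test was possible with 1 array per group, so the number of arrays limits the precision. The counting step was tested on simulated data.

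The 10 genes and all lists were chosen with earlier results of these data known. All probes of the 10 genes were named. Of the lists, 20 anchor genes were named, with the genes of the largest rise and fall per list at each dose by their brightest probe; 2 genes that this rule names are not reported here. Probe names came from RefSeq accessions of GRCh38.p14. Alternatives were quantile normalization, cyclic loess, median centring, normexp (offset 50, median spot and background intensities, spots with a background flag left out), other filters, other spots and other summaries per gene. Python 3.11.15, numpy 2.4.6, pandas 2.3.3, matplotlib 3.10.9, R 4.3.3 and limma 3.58.1 were used.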

Additional observations from a re-analysis of the deposited data

How the results depend on the processing

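No paired analysis was possible because each group had 1 array, and for the same reason no array could be left out. None of the iron gene probes reached 2-fold under any scaling, and the count of 1 at CA 50 µM without a filter on dim probes was the HFE probe that was not well above background. The sign was kept under all alternatives for 10 of 13 probes at CA 50 µM and 6 of 13 at CA 100 µM. All 3 FTH1 probes, HAMP and IREB2 were among these probes, and TFRC was not. The filters on spots cannot move a single unflagged spot, as these FTH1, HAMP and IREB2 probes are, so part of this agreement was fixed in advance. The smallest FTH1 value was that of the third probe at CA 50 µM, -0.01 against the 25 next dimmer and 25 next brighter probes. The median of the iron gene probes was -0.13 with normexp at CA 100 µM, and 0.051 between the doses with probes averaged per gene and 0.051 with the brightest probe, where 1 value per gene gives FTH1 less weight. For the lists, cyclic loess gave 1 probe beyond 2-fold at CA 50 µM (ALAS2) and 1 at CA 100 µM (MCOLN1), keeping spots with an outlier flag gave 1 at CA 50 µM (HSCB), and no filter on dim probes gave 1 between the doses (IL6ST). At 1.5-fold the lists held 7 of 153 probes (4.58%) at CA 50 µM, 5 of 152 (3.29%) at CA 100 µM and 2 of 153 (1.31%) between the doses, against 7.21%, 4.31% and 3.62% of all probes. HSCB and IL6ST were named after their values were seen. The cause of these shifts was not tested. Spots with an outlier flag and the comparisons with probes of like signal were added after seeing the data. Dim probes such as TFR2 and HFE limit what could be resolved.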
